A study of Mus musculus with 4 samples.

Results

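The proteasome genes were taken as all protein-coding genes whose symbols begin with Psm, a letter from a to g and a number, in the GENCODE vM21 basic annotation of the mouse genome (mm10). The rule found 50 genes among 21755 protein-coding genes. They were examined in maps of H3K27ac, an acetylation of histone H3 that marks active promoters and enhancers, made by chromatin immunoprecipitation and sequencing. The tissue was cerebral cortex from the left side, taken from females of B6CASTF1/J, first-generation hybrids of the C57BL/6J and CAST/EiJ strains, at an adult age of 2 months. The 4 samples were 2 technical libraries from each of 2 pools, named pool I and pool J, and each pool combined 4 biosamples. All samples belonged to 1 condition, so no contrast between conditions existed and no p-value is given. Peaks were available in a replicated list made from both pools, which held 72027 peaks, and in a list for each pool alone, with 69834 peaks for pool I and 49839 for pool J on the chromosomes examined.

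The proteasome is the protease complex that degrades proteins tagged with ubiquitin. Its barrel-shaped core particle is built of rings of alpha and beta subunits, and a few of the beta subunits carry the active sites. A regulatory particle, made of a ring of ATPases and a lid of other subunits, binds ubiquitinated proteins, unfolds them and feeds them into the core. In immune cells and after interferon, the active beta subunits of newly made cores are replaced by immunoproteasome subunits, which change the peptides available for presentation on major histocompatibility complex class I. Cortical epithelial cells of the thymus and male germ cells have replacement subunits of their own.

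The 50 genes fell into 31 constitutive subunits, 5 replacing subunits (Psmb8, Psmb9 and Psmb10 of the immunoproteasome, Psmb11 of the thymus and Psma8 of the testis), 7 dedicated assembly chaperones, 5 activators, 1 inhibitor (Psmf1) and 1 gene of another function. The last is Psmc3ip, whose product interacts with recombinases in meiosis, and it was kept because its symbol meets the rule. A promoter peak was one that came within 1 kb of any annotated transcription start site (TSS), and a gene with several took the one of highest signal. The signal is the value that the authors' peak caller gave to each peak, and it serves here to rank peaks within a list.

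Marker genes of cell types were checked against the labelled tissue. All 10 cortical neuron markers had a replicated promoter peak, as did 7 of 10 microglial and 5 of 5 endothelial markers. The share over all coding genes was 58.5%. Median signal percentiles were 71.1, 10.5 and 4.79 in the same order, among coding genes with a promoter peak. Within the cortical list Gad1 and Gad2 were low, at percentiles 8.76 and 5.20. None of 6 lymphocyte markers had a promoter peak in any of these lists. Of 6 male germline genes only Dazl had one, with a signal of 4.37. In the thymic epithelium list, Foxn1 and Aire, the defining regulators of that cell type, had none. In bulk tissue a promoter marked in few cells and one marked weakly in all cells cannot be told apart.

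Promoter acetylation covered nearly the whole gene family. A promoter peak was found for 46 of the 50 genes among the replicated peaks, while 58.5% of all protein-coding genes did. The list of pool I gave 47 genes, with 58.2% of all coding genes, and that of pool J gave 45, with 55.2%. All 31 constitutive subunits had a promoter peak in each of these 3 lists. Of the 5 replacing subunits 2 had one in the replicated list, 3 in pool I and 2 in pool J. The 4 genes with none in the replicated list were Psmb8, Psmb11, Psma8 and the activator gene Psme2b.

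**Figure D1:**
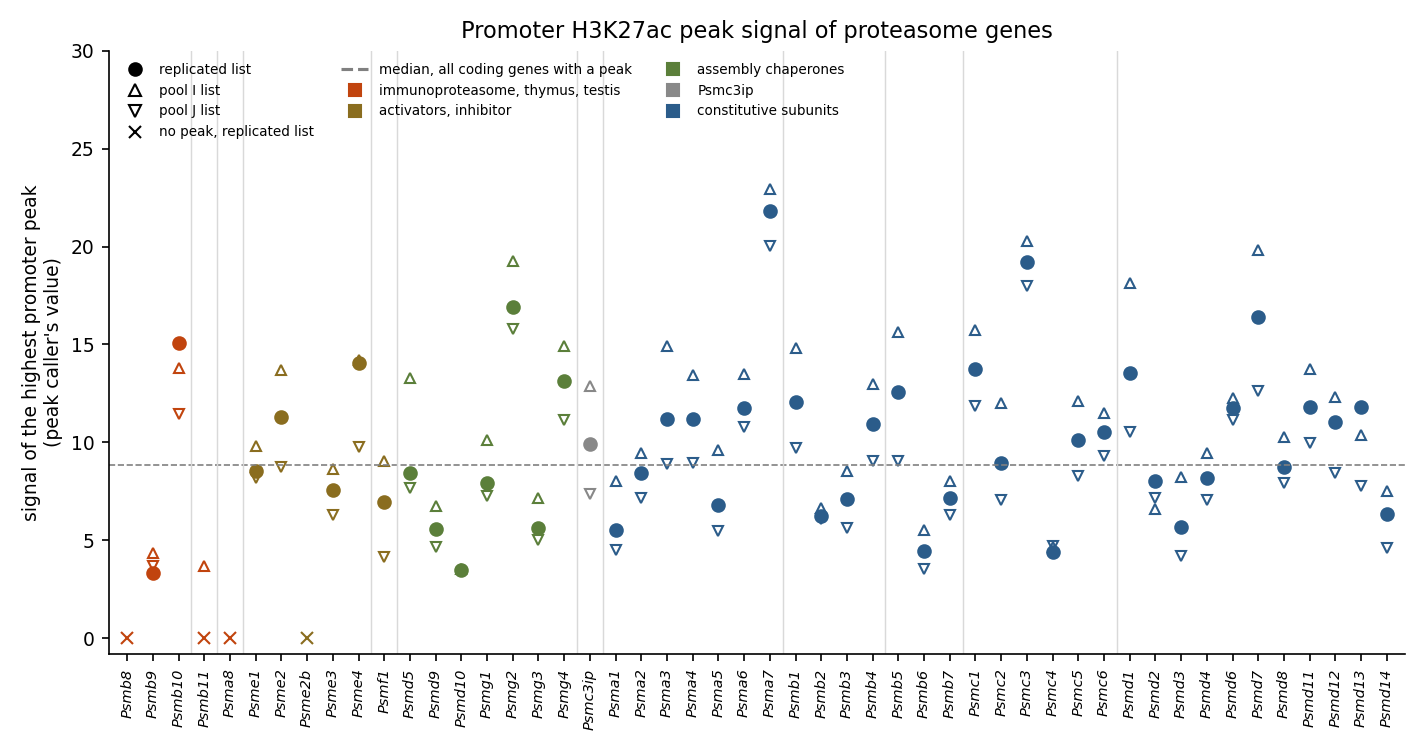
Signal of the highest promoter peak (vertical axis, the peak caller's value) for each of the 50 genes, grouped by class. Filled circles are the replicated list, upward triangles pool I, downward triangles pool J, and crosses genes with no peak in the replicated list. The 31 constitutive subunits all carried a peak, between 4.38 and 21.8, while 3 of the 5 replacing subunits had none.

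The immunoproteasome subunits differed widely from each other. Psmb8, which takes the place of the chymotrypsin-like subunit Psmb5, had no promoter peak in any list. Its nearest peak in the replicated list lay 6694 bp from its TSS, at chr17:34204484-34204881, the promoter peak of the peptide transporter gene Tap2. Psmb5 had a peak at chr14:54617320-54618547 with a signal of 12.6 in the replicated list, 15.7 in pool I and 9.02 in pool J. The replicated value stood at percentile 76.1 of the 12719 coding genes with a promoter peak.

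Psmb9, which replaces the caspase-like subunit Psmb6, had a weak peak at chr17:34187041-34188057. Its signal was 3.34 in the replicated list, 4.33 in pool I and 3.71 in pool J. The replicated value was the lowest of the 46 genes, while Psmd10 was lower in pool I (3.55) and Psmb6 in pool J (3.53). Psmb6 was also low, with 4.47, 5.53 and 3.53 in the replicated, pool I and pool J lists, so the value for Psmb9 was lower among replicated and pool I peaks and higher in pool J. The percentiles in the replicated list were 4.87 for Psmb9 and 13.4 for Psmb6. The replicated peak of Psmb9 was 1017 bp wide and that of Psmb6 428 bp, while in pool J the highest peaks were 352 bp and 376 bp wide, so the order of widths turned. It cannot be assigned to Psmb9 alone, since the start of Tap1, the partner subunit of the peptide transporter, lies 38 bp away on the other strand. Its −log10 q of 4.90 was the second lowest among the genes, after the 4.12 of Psmd10.

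Psmb10, which replaces the trypsin-like subunit Psmb7, showed the reverse order. Its peak at chr8:105936406-105938521 had a signal of 15.1 in the replicated list, 13.8 in pool I and 11.5 in pool J, and Psmb7 had 7.18, 8.05 and 6.30. The value for Psmb10 was higher than that for Psmb7 in each list. In the replicated list the percentiles were 87.1 for Psmb10 and 35.9 for Psmb7, and the widths were 2116 bp and 716 bp. The percentile of Psmb10 was lower in the pool lists, 70.3 in pool I and 79.8 in pool J, where Psmb7 had 32.4 and 33.2. The Psmb10 peak reached the TSS but ran into the gene, with its summit 1112 bp downstream in a coding exon. No other annotated gene had a TSS within 1 kb of it.

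The thymus and testis subunits had no replicated promoter peak. Psmb11, which takes the Psmb5 position in cortical thymic epithelium, had a peak only in the pool I list, at chr14:54624521-54624981, with a signal of 3.68 and percentile 2.69. That peak spanned −789 to −329 bp from the TSS, and a peak of signal 2.77 at nearly the same place was in the list made from both pools without the replicate rule. Psmb11 lies next to Psmb5, whose promoter peak was its nearest in the replicated list at 6763 bp. Psma8, which takes the place of Psma7 in spermatocytes, had no promoter peak in any list, and its nearest replicated peak lay 22557 bp away. Psma7 had the highest signal of all 50 genes, with 21.8 in the replicated list, 22.9 in pool I and 20.0 in pool J, at percentile 97.8 in the replicated list. Its peak of 1903 bp also covered the start of Ss18l1, a gene for a chromatin remodelling subunit of neurons, which lies 76 bp away on the other strand.

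**Figure D2:**
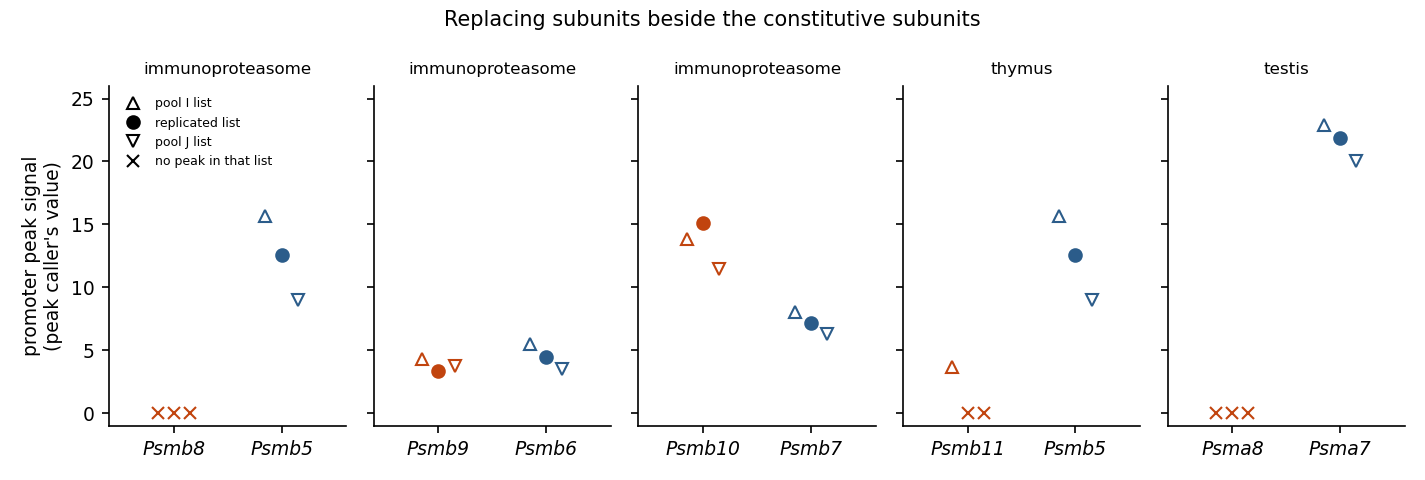
Promoter peak signal (the peak caller's value) of each replacing subunit, left, beside the constitutive subunit it replaces, right. Filled circles are the replicated list, triangles the 2 pools and crosses lists with no peak. Psmb10 was above Psmb7 in each list, Psmb9 and Psmb6 overlapped, and Psmb8, Psmb11 and Psma8 had no peak in the replicated list.

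Promoter sequences of the replacing subunits are printed because these genes differ most within the family in whether a promoter peak was present. Promoters were taken from RefSeq on GRCm38.p6 and run from 250 bases before to 50 bases after the start site, and 42 of the 50 genes had 45 such promoters. CpG dinucleotides, which are dense in promoters of housekeeping genes, are in capitals in the immunoproteasome and thymus promoters here. Psmb8 and Psmb11 (plus strand) are chr17:34197945-34198244 and chr14:54625060-54625359, and Psmb9 and Psmb10 (minus strand) are chr17:34187281-34187580 and chr8:105938343-105938642. The CpG count was 11 in Psmb8, 17 in Psmb9, 3 in Psmb10 and 4 in Psmb11, and it was 20 in Psmb5 and 15 in Psmb6.
Psmb8: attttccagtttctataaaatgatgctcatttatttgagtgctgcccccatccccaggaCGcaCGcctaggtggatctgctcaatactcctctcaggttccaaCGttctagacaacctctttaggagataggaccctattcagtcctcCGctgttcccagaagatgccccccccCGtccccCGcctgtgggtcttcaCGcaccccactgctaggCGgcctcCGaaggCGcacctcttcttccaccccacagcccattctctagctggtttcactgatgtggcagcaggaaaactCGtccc
Psmb9: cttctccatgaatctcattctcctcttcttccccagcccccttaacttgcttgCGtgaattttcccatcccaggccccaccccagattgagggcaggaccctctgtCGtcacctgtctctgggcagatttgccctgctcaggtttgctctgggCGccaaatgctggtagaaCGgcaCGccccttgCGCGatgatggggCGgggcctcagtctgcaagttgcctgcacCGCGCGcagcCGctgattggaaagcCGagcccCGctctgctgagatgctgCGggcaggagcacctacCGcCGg
Psmb10: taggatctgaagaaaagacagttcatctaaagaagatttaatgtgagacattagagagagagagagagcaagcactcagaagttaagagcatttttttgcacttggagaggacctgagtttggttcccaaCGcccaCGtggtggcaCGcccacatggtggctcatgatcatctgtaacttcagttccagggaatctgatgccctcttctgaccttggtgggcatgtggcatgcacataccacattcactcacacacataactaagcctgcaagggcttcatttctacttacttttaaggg
Psmb11: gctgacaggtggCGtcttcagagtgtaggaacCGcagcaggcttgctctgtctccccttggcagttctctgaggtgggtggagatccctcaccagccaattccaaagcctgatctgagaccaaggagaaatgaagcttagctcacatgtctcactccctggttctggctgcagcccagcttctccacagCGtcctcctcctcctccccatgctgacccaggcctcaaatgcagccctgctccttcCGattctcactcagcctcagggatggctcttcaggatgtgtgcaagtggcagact

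Among the promoters printed here the order of CpG counts was not the order of signals. Psmb10 had the fewest CpGs and the highest signal, although its summit lay outside the printed promoter, of which 59.7% was inside the peak. Psmb9 had the most CpGs and a signal below that of Psmb10, and all of its promoter was inside the peak. The RefSeq start of Psmb8 lies inside the gene relative to the GENCODE start, and no base of the promoter printed here was in a promoter peak. Over the 45 promoters the median CpG count was 19, compared with 13 over 21045 coding promoters and 21 over the 12762 promoters of genes with a promoter peak. The ratio of observed to expected CpG had medians of 0.73, 0.57 and 0.75 in the same order. The genes not in the RefSeq table used here were Psma8, Psmb1, Psmb2, Psmb7, Psmc3, Psmd3, Psmd7 and Psmg2.

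**Figure D3:**
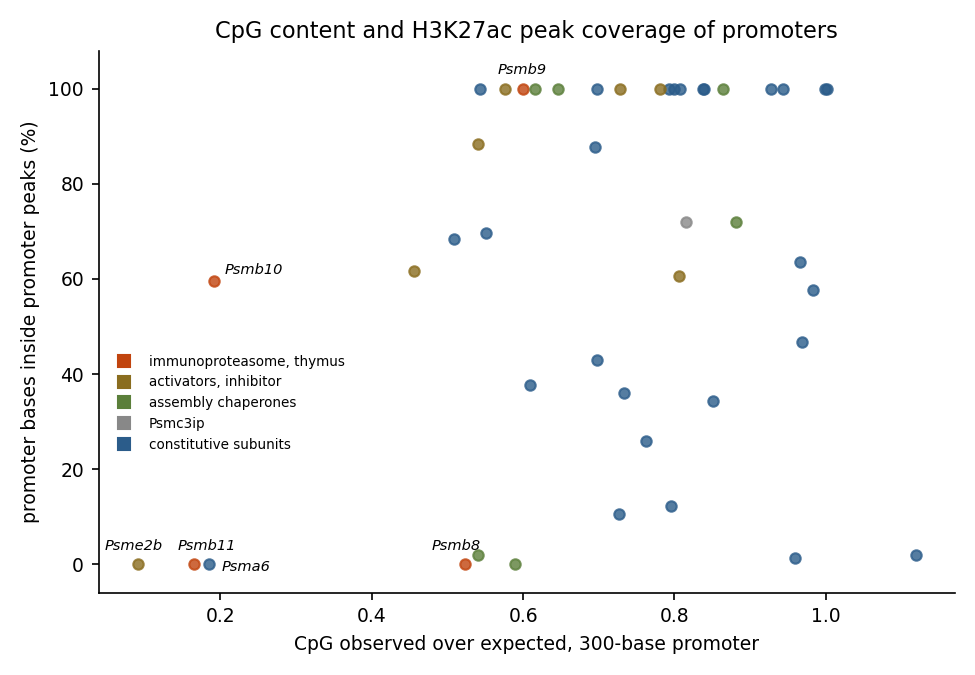
Observed over expected CpG (horizontal axis) and the percentage of promoter bases inside promoter peaks of the replicated list (vertical axis) for 45 promoters of 300 bases. Of these, 18 were wholly inside peaks, 22 partly and 5 not at all, and the 5 were those of Psmb8, Psmb11, Psme2b, Psmd9 and the upstream start of Psma6.

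Psma6, an alpha ring subunit, is shown because only 1 of its starts had a replicated peak within 1 kb. It has an upstream start, chr12:55383972-55384271, and a second start, chr12:55398575-55398874, both on the plus strand of GRCm38.p6. The upstream promoter held 3 CpGs and had no base in a promoter peak, and the second held 22 and lay wholly within a peak at chr12:55398134-55399507. That peak had a signal of 11.8 in the replicated list, 13.5 in pool I and 10.8 in pool J. Beyond the 1 kb limit, a weaker intronic peak with a signal of 4.37 began 1396 bp downstream of the upstream start. It lay at chr12:55385618-55386439 and overlapped a peak in both pool lists. CpGs are in capitals.
Psma6 upstream start: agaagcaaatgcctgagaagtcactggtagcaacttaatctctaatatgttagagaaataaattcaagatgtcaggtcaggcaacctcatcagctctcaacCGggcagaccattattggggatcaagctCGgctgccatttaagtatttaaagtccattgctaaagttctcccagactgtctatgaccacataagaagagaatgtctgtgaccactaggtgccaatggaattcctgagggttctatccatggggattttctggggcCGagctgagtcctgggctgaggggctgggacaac
Psma6 second start: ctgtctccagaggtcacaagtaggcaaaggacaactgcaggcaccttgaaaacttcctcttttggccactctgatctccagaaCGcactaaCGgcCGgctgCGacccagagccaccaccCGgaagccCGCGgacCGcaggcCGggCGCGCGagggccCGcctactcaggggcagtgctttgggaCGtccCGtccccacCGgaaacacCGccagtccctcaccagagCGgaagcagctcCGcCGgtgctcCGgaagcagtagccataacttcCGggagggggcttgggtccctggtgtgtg

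Among the 31 constitutive subunits the median signal percentile was 62.8, and over all 46 genes with a promoter peak it was 54.6. The median signal was 9.44 over the 46 genes and 8.86 over all coding genes with a promoter peak. The middle of the range was therefore close to that of coding genes in general. At the extremes, 4 of the 46 reached percentile 90 (8.70%) and 8 were under percentile 25 (17.4%).

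In the alpha ring, which gates the entry to the core, Psma6 came after Psma7 in the replicated and pool J lists, and Psma3 did in pool I with 14.9. The lowest was Psma1, with 5.51 in the replicated list, 8.01 in pool I and 4.51 in pool J. Psma2 (8.44), Psma3 (11.2), Psma4 (11.2) and Psma5 (6.78) lay between in the replicated list. The beta subunits without an active site ranged from Psmb2, with 6.23, 6.62 and 6.07 in the replicated, pool I and pool J lists, to Psmb1, with 12.1, 14.8 and 9.70, although Psmb3 was below Psmb2 in pool J with 5.65. The Psmb1 peak, at chr17:15497732-15500376, was the widest of the family in the replicated list at 2645 bp, and in both pool lists that of Psmb10 was wider. It also covered the start of Tbp, the gene of the TATA-binding protein, 137 bp away on the other strand. Psmb3 (7.11) and Psmb4 (10.95) lay between these.

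The ATPases of the regulatory particle, which unfold substrates, had a wide spread. Psmc3 reached 19.2 in the replicated list, 20.3 in pool I and 18.0 in pool J, at chr2:91053721-91054927. Psmc4 had the lowest signal of the ATPases, with 4.38, 4.64 and 4.68 in the same lists, in a replicated peak of 369 bp. The Psmc3 values stood above the Psmc4 values in each list, with no overlap. Psmc1 (13.7), Psmc2 (8.94), Psmc5 (10.1) and Psmc6 (10.5) lay between. The highest Psmc2 peak had its summit 1569 bp downstream of the annotated TSS, and it covered all of a second RefSeq promoter of the gene.

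Of the 11 other subunits of the regulatory particle, Psmd7 was highest. This partner of the deubiquitinase Psmd14 had 16.4 in the replicated list, 19.8 in pool I and 12.6 in pool J. Psmd3 had 5.66, 8.21 and 4.18, the lowest in the replicated and pool J lists, and Psmd2 was lowest in pool I with 6.57. The ubiquitin receptor Psmd4 had 8.20 in the replicated list and Psmd14 itself 6.35. The scaffold subunits Psmd1 and Psmd2 had 13.5 and 8.01.

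The dedicated assembly chaperones, which help build the core and the regulatory particle and leave the finished complex, spanned a wide range of signal. Psmg2, a chaperone of the alpha ring, had 16.9 in the replicated list, 19.2 in pool I and 15.8 in pool J. Psmd10, also known as gankyrin, had 3.47 in the replicated list and 3.55 in pool I, and no promoter peak in pool J. Its peak, at chrX:140956956-140957432, lay wholly upstream of Psmd10 in an intron of Atg4a, a gene of autophagy that starts 179 bp away. The list made from both pools without the replicate rule also held a peak of signal 3.07 inside Psmd10. That peak spanned 48 to 268 bp downstream of the TSS. Psmd5 (8.42), Psmd9 (5.56), Psmg1 (7.93), Psmg3 (5.62) and Psmg4 (13.1) lay between Psmg2 and Psmd10 in the replicated list. The median percentile of the 7 chaperones was 42.4.

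The activators cap the core in place of the regulatory particle. Psme4, an activator gene known for its role in spermatogenesis and in histone degradation, had the highest signal of them, with 14.0 in the replicated list, 14.2 in pool I and 9.77 in pool J. The interferon-inducible activator genes Psme1 and Psme2 were both marked. Psme1 had 8.56, 9.82 and 8.16 in these lists, and Psme2 had 11.3, 13.7 and 8.77. Psme2 had 3 promoter peaks, which it shared with Rnf31, the gene of a ubiquitin ligase that starts 607 bp away. Psme3, which encodes the nuclear activator, had 7.57, 8.65 and 6.31. Psme2b had none in any list, and its nearest replicated peak lay 73065 bp away. Its name marks it as a copy of Psme2, and the sources used here do not say how reads shared by near-identical copies were placed.

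Psmf1, the inhibitor, had peaks on both sides of an internal start and none at its 5′ end. The higher peak, at chr2:151741379-151741822, had 6.98 in the replicated list and 9.06 in pool I. In the pool J list only the downstream peak remained, with 4.15. Psmc3ip had 9.94 in the replicated list, 12.9 in pool I and 7.37 in pool J, and its peak lay upstream of the TSS.

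Agreement between the pools was close in rank. The 45 genes with a promoter peak in both pool lists had a Spearman correlation of 0.91 between their pool signals and a Pearson correlation of 0.90 on the log2 scale, and over 11906 coding genes these were 0.88 and 0.88. These are correlations across genes that share a list in each pool, and genes are not independent replicates. The pool I value was the higher in 43 of the 45 genes and in 11019 of the 11906 coding genes. The pools were called separately and at unknown depths, so this direction is no difference between genes.

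In the replicated list the promoter peaks of the family were narrow. The median width was 854.5 bp over the 46 genes and 817 bp over the constitutive subunits, compared with 1139 bp over all coding genes with a promoter peak. A width of 2 kb or more was reached by 2 of 46 genes, Psmb1 and Psmb10, or 4.35%, compared with 18.3% of all coding genes with a peak. Widths under 500 bp were found in 7 genes, or 15.2%, and in 13.1% of all coding genes with a peak. Median widths in the pool lists were 1069 bp in pool I and 725 bp in pool J. Widths over all coding genes were not set beside these, so the comparison holds for the replicated list alone.

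In the replicated list a peak lay over the TSS nearest the highest summit in 34 of the 46 genes, 73.9%. This share was near the 73% of all coding genes with a promoter peak. In 7 genes peaks flanked the TSS on both sides with none over it, a pattern found in 15% of coding genes with a promoter peak. They were Psma2, Psmb3, Psmb7, Psmc2, Psmc6, Psmd14 and Psmf1. In Psmd3, Psmd6 and Psmd9 peaks lay downstream alone, and in Psmd10 and Psmc3ip upstream alone. These patterns varied between lists. Psmc6, Psmd14 and Psmf1 had only a downstream peak in pool J, and Psmd3 also had an upstream peak in pool I. In the replicated list the summit of the highest peak lay downstream of the TSS in 34 of the 46 genes, 73.9%. It did so in 27 of the 31 constitutive subunits, 87.1%, compared with 66.8% of all coding genes with a peak. Its median place was 153 bp downstream in the constitutive subunits and 128 bp downstream in all coding genes with a peak.

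**Figure D4:**
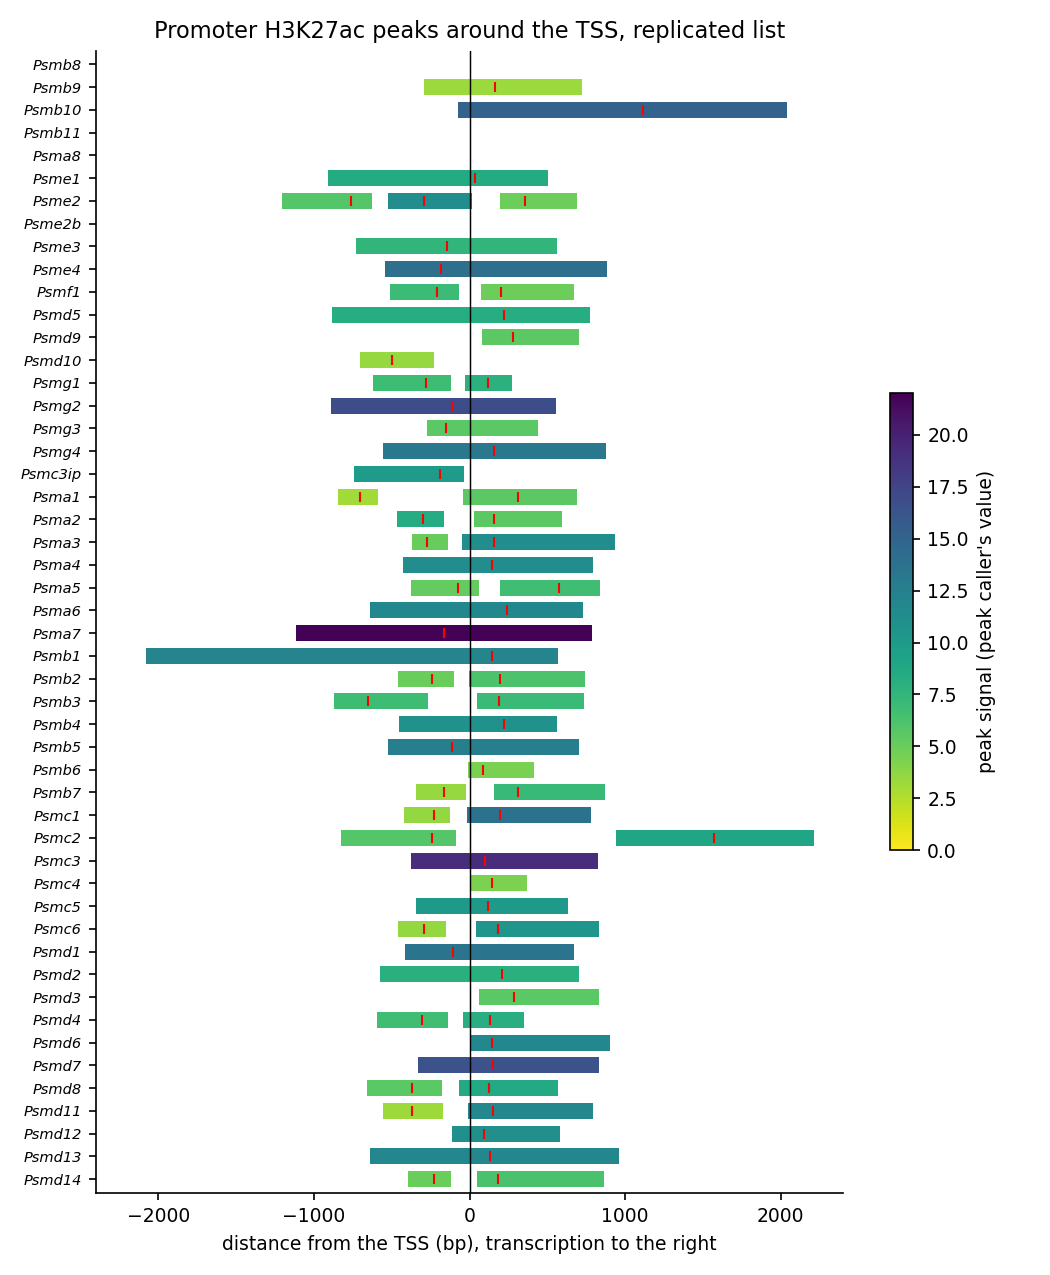
Promoter peaks of the replicated list around the TSS nearest the highest summit, with distance in bp (horizontal axis, transcription to the right) and 1 row per gene. Bars are peaks coloured by signal, and red ticks are summits. Peaks lay over the TSS in 34 genes, and those of Psmb10 and Psmc2 extended furthest downstream. The Psmb1 peak extended furthest upstream of the plotted start, but that start, chr17:15498298, is internal. The 5′ end of Psmb1, chr17:15499751, lay within the same peak, so much of this extent is inside the gene.

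A coding gene on the opposite strand started within 1 kb upstream of 10 of the 50 genes, a larger share than the 9.08% of all coding genes. Apart from Ss18l1, Tbp, Tap1, Atg4a and Rnf31, named above, these partners were Mrpl32 at Psma2, Dnajc2 at Psmc2, Ftsj3 at Psmc5, Sirt3 at Psmd13 and Cep76 at Psmg2. Mrpl32 encodes a mitochondrial ribosomal protein, Dnajc2 a ribosome-bound chaperone and Sirt3 a mitochondrial deacetylase. The highest promoter peak was near the start of another coding gene in 12 of the 46 genes, 26.1%, compared with 19.7% of all coding genes with a peak. The signal of such a peak cannot be divided between the genes.

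The antioxidant response element is the site through which Nfe2l1, the factor that raises proteasome genes when the proteasome is inhibited, and the related Nfe2l2 act. Its core, TGACNNNGC, was searched on both strands and occurred in 6 of the 45 promoters, 13.3%, compared with 12.98% of 21045 coding promoters and 13.98% of promoters of genes with a promoter peak. It was present in the promoters of the catalytic subunits Psmb5 and Psmb6, printed here with the match in capitals, and neither match overlapped another motif searched. The Psmb5 promoter is chr14:54617946-54618245 on the minus strand and that of Psmb6 chr11:70525107-70525406 on the plus strand, both on GRCm38.p6. The match in Psmb5 began 47 bases before the start site and that in Psmb6 9 bases before it. The remaining matches were in Psmc6, Psmd12, Psmd9 and Psme4, of which that in Psmd9 overlapped a match to another motif.
Psmb5: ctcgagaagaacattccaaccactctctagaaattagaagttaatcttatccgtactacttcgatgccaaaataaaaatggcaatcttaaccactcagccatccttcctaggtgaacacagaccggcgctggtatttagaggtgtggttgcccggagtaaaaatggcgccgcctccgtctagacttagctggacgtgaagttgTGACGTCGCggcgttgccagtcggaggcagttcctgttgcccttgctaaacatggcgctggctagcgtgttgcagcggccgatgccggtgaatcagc
Psmb6: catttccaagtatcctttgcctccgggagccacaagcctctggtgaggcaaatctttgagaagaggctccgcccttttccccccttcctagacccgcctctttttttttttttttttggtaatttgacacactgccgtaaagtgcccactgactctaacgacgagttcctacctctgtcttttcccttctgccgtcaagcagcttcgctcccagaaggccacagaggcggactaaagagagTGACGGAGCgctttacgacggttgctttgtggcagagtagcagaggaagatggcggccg

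The ETS motif CCGGAAG occurred in 16 of the 45 promoters, from 15 genes, or 35.6%. It occurred in 11.7% of all coding promoters and in 16.7% of the promoters of genes with a promoter peak. It was found in 10 of the 25 constitutive subunits with a promoter in the table and in 0 of the 4 immunoproteasome and thymus subunits, too few genes to compare the classes. Stretches are printed from the constitutive subunits with a match beginning 6 to 28 bases before a start site, with both starts of Psmc2. The match is in capitals and reads CTTCCGG where it is on the other strand. The stretches are chr12:100110162-100110192 (Psmc1), chr5:21785179-21785209 and chr5:21786711-21786741 (Psmc2, first and second start), chr16:20651614-20651644 (Psmd2), chr11:80428592-80428622 (Psmd11), chr11:107479499-107479529 (Psmd12) and chr7:140882376-140882406 (Psmd13), all on the plus strand of GRCm38.p6. None of the printed matches overlapped another motif searched.
Psmc1: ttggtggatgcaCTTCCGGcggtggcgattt
Psmc2 first start: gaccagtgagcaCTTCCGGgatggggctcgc
Psmc2 second start: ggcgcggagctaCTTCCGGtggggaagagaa
Psmd2: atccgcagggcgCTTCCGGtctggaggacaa
Psmd11: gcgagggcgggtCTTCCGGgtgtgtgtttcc
Psmd12: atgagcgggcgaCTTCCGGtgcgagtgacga
Psmd13: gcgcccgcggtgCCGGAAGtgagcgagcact

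The match at the first start of Psmc2 began 84 bases before it. Other matches in constitutive subunits, not printed as stretches, were in Psmc6, Psmd4 and Psmd6, which began 100, 125 and 45 bases before the start, and in Psma6, whose second start had 3. The interferon-stimulated response element GAAANNGAA occurred in 7 promoters, 15.6%, compared with 8.10% of all coding promoters and 6.75% of promoters of genes with a promoter peak. It was in Psmb3, Psmb4, Psmc2, Psmd4, Psmd9, Psme1 and Psmg4, and not in the 300-base windows of Psmb8, Psmb9 or Psmb10. The Psmb8 window began downstream of its GENCODE start at chr17:34197790, so it left out the sequence before that start. The absence in these windows does not show that the genes lack the element elsewhere. The GC box GGGCGG occurred in 24 of the 45 promoters (53.3%), a share above the 46.7% of all coding promoters and below the 62.9% of promoters of genes with a promoter peak. CCAAT occurred in 15 (33.3%), compared with 38.5% and 37.0% of the same sets. The NRF1 site GCGCATGCG and the YY1 site AAGATGGCG occurred in 2 promoters each, which is 4.44%, compared with 2.37% and 1.84% of coding promoters, and with 3.56% and 2.88% of promoters of genes with a promoter peak. A match states that these letters are present and does not show that a factor was bound.

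Distal peaks overlapped no promoter window of any gene and came within 100 kb of a TSS of the gene. At least 1 was present for 46 of the 50 genes and for 72.6% of all coding genes. The median number was 3.5 per gene, compared with 3 over all coding genes, and the number of other coding genes with a TSS within 100 kb had medians of 4.5 and 4. Psma4, Psmb1, Psmc4 and Psmd10 had none. The replacing subunits had 2 at Psmb8, 2 at Psmb9, 13 at Psmb10, 10 at Psmb11 and 2 at Psma8. The subunits they replace had 10 at Psmb5, 12 at Psmb6, 1 at Psmb7 and 2 at Psma7. Psmb8 and Psmb9 counted the same 2 peaks.

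The highest counts were those of Psmc3 with 28, Psma5 with 24 and Psmg4 with 23. Of the 28 peaks near Psmc3, only 1 had Psmc3 as its nearest coding gene, an intronic peak at chr2:91060346-91061954 with a signal of 4.76. Many of the others lay in Celf1, the gene of an RNA-binding protein. None of the 24 peaks near Psma5 had Psma5 as the nearest coding gene. Psmg4 was the nearest for 13 of its 23, among them a peak at chr13:34148227-34150866 with a signal of 6.22, 12098 bp from the TSS.

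**Figure D5:**
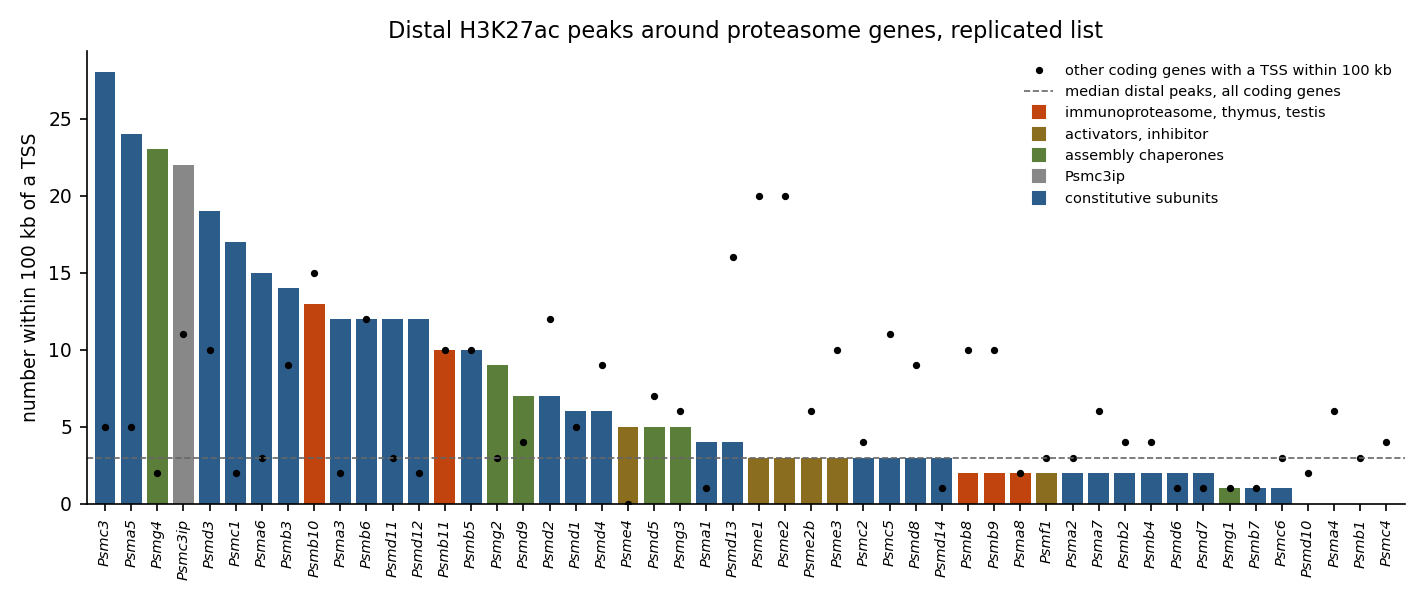
Number of distal peaks of the replicated list within 100 kb of a TSS of each gene (bars, coloured by class) and number of other coding genes with a TSS in that window (points). The counts ran from 0 to 28, and the dashed line is the median of 3 over all coding genes.

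The family gave 348 pairs of a gene and a distal peak, made of 333 different peaks. Of the pairs, 18 were under 10 kb apart, 132 between 10 and 50 kb and 198 further. The gene was the nearest coding gene in 49 pairs, which involved 16 of the 50 genes, while 39.7% of all coding genes had a distal peak nearest to them. Of the 333 peaks 180 lay in introns, 91 between genes and 62 in exons. In the pool lists, 177 overlapped a peak of both pools, 97 of pool I alone, 12 of pool J alone and 47 of neither. A distal peak names a neighbour and not a target.

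The distal peak of highest signal, 21.5, lay at chr11:98780773-98787762, 98219 bp from Psmd3 and close to the limit of the window. Psma3 had the highest one for which a proteasome gene was the nearest coding gene. It lay at chr12:70967768-70969152, 5469 bp from the nearest TSS, with a signal of 15.1, above the 11.2 of the Psma3 promoter peak. Psmb5 and Psmb11 had in common a peak of signal 15.0 at chr14:54602820-54604142, in an intron of 4931414P19Rik, 13866 bp from Psmb5 and 21168 bp from Psmb11.

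Genes that work with the proteasome but carry other symbols nearly all had promoter peaks. Of 22 such genes in the annotation used, 21 carried a promoter peak in each of the 3 lists, and Ddi1 was the exception. Over all coding genes the shares were 58.5%, 58.2% and 55.2% in the replicated, pool I and pool J lists. The median signal percentile of the 21 genes was 69.8 in the replicated list. Nfe2l1, the factor named above, had a signal of 14.4 in a replicated peak of 4667 bp, the widest of the list, and Nfe2l2 had 9.19. Ddi2, the protease that activates Nfe2l1, had 11.3, Ngly1, which removes its sugar chains, 15.8, and Vcp, the ATPase that extracts it from the membrane, 13.7. Rad23b, a shuttle for ubiquitinated proteins, had the highest replicated signal of the list at 16.3. The core assembly factor Pomp had 14.9, and the ubiquitin receptor gene Adrm1 had 10.6.

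Genes of antigen presentation, with which the immunoproteasome works, had lower promoter signals. Of 11 such genes 8 carried a replicated promoter peak, while 58.5% of all coding genes did. Those 8 had a median percentile of 19.7 and signals from 2.77 (H2-D1) to 7.72 (B2m, the light chain of class I molecules). The peak counted for Tap1, with 3.34, is the same peak as that of Psmb9. The interferon-regulated factor Irf1 had 6.16, and the peptide-loading gene Tapbp had 6.03. H2-D1 had no promoter peak in the pool I list. The class I gene H2-K1 and the activators of class I and class II genes, Nlrc5 and Ciita, had no replicated promoter peak. How reads shared by similar genes or carrying strain variants were handled is unknown, which limits what an absent or low peak shows at class I genes. The part of microglial cells in the peaks at Psmb9 and Psmb10 was not tested. Among microglial markers Cx3cr1 had a signal of 2.44 and P2ry12 4.09, and C1qa, C1qb and Tmem119 had none.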

How the data were processed

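H3K27ac ChIP-seq of 4 samples, 2 technical libraries from each of 2 pools, was available as peak lists on mm10. The technical libraries of a pool share 1 alignment, so values exist per pool and p-values over samples were not possible. Whether pools came from separate animals throughout is known only as far as the labels name 4 biosamples in each. Per the file headers and labels, the lists follow the narrowPeak layout. Signal, −log10 q and display score of a peak are as the authors' peak caller deposited them, and the score was not used. The sources used here do not give the aligner, the caller, their versions, the normalization of the signal or how strain variants were handled. CAST/EiJ reads that carry variants could be mapped less often. Library depth is unknown, so no counting interval was made.

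From these lists, promoter peaks (1000 bp on either side of any TSS) and distal peaks (within 100 kb) were assigned with Python 3.11.15 and numpy 2.4.6, and the assignment was tested on simulated peaks. Correlations used scipy 1.17.1. A percentile is the rank of a gene's highest promoter peak among coding genes with one in the same list, and ranks from lists of different lengths show no change. Promoter sequences and motif matches came from RefSeq on GRCm38.p6. The members, gene lists and motifs were chosen with earlier results of these data known. Named with full values were the catalytic and replacing subunits, activators and inhibitor, the highest and lowest signal in each other class, genes with no peak or missing from the list of 1 pool, and the 3 highest distal counts. Other genes named were chosen after their values were seen. Alternatives were the list of both pools, each pool left out, a −log10 q of at least 5, promoter windows of 500 and 2500 bp, the 5′ end alone, a distal window of 50 kb, distal peaks by nearest coding gene, and motif windows of 1000 bp on either side. Paaf1 was not analysed here, and single values of 2 list genes are not reported here.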

Additional observations from a re-analysis of the deposited data

How the results depend on the processing

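The promoter peaks of the constitutive subunits and of the family hardly depended on the settings tried. The number of genes with one was between 45 and 47 with either pool left out, and between 44 and 47 under the other alternatives. Windows of 500 and 2500 bp lost and gained none. The 5′ end alone lost Psma6 and Psmf1, the list of both pools gained Psmb11, and a −log10 q of at least 5 lost Psmb9 and Psmd10. Replacing subunits with a promoter peak then numbered 1 instead of 2. With a pool left out they numbered from 2 to 3, constitutive subunits with a peak 31 both times, the median percentile ran from 51.1 to 56.3, and the median width from 725 to 1069 bp. The median percentile was 50.8 in the list of both pools and 59.2 with a window of 2500 bp, both of which moved it by more than the spread between pools. Distal counts depended on their rule. Their median was 2 with a −log10 q of at least 5 and also with a window of 50 kb, and 0 when only the nearest coding gene counted, where 16 genes had at least 1. Over all coding genes these medians were 1, 1 and 0, and 39.7% had at least 1 by the last rule. With a pool left out the median ran from 3 to 4, and genes with at least 1 distal peak from 43 to 47. Over all coding genes the median then ran from 2 to 3, and the share with at least 1 from 64.3% to 72.8%. With 1000 bp on either side of the start, genes with a match numbered 27 for the antioxidant response element, 24 for ETS, 5 for YY1, 38 for CCAAT and 30 for the interferon-stimulated response element, in a window that is longer. As shares of member and of all coding promoters these were 62.2% and 52.3%, 57.8% and 25.4%, 11.1% and 4.17%, 88.9% and 91.6%, and 73.3% and 45.7%, in the same order. No paired analysis was possible because the replicate numbers mark technical libraries that share 1 alignment, and no groups were compared. Unknown depth limits what an absent peak shows, most of all for Psmb11 and Psmd10, each missing from the list of 1 pool.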
